A study of Mus musculus with 6 samples.

Results

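The IL-6 family genes described here were 4 ligand genes (Il6, Il11, Lif and Clcf1) and 5 receptor subunit genes (Il6st, Il6ra, Il11ra1, Lifr and Osmr), 9 of the 25239 rows of the gene table. They were taken by symbol and selected on their measured difference between the groups, so their levels and fold changes are given as a description with no test. All 9 were among the 14065 genes that passed the filter on low counts. The samples were mouse primary pulmonary fibroblasts, 3 libraries labelled quiescent and 3 labelled Nutlin 3a-induced senescent, all grown with 10% serum at 5% oxygen. The treatment text describes RO3306, a Cdk1 inhibitor, for 16 hours, then Nutlin 3a, which frees p53 from Mdm2, for 48 hours, then BI-2536, a Plk1 inhibitor, at 100 nM against cells that still divided, with a total of 12 days. That text is repeated on the quiescent samples, so it cannot be read from the labels whether they received any of these drugs, and the sources used here do not give their route to quiescence. No transgene or allele is named, and strain, age and the number of animals are also not given. The replicates are separate samples in the labels, with nothing on separate cultures or animals, so the spread between them may be technical, and the p-values given for other genes measure only that spread.

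The cytokines of this family share gp130, the protein of Il6st, as the signalling part of their receptor. IL-6 and IL-11 first bind a receptor of their own, the proteins of Il6ra and Il11ra1, and the complex then joins gp130 molecules, whereas LIF signals through gp130 paired with the LIF receptor (Lifr) and oncostatin M, in the mouse, mainly through gp130 paired with the oncostatin M receptor (Osmr). Cardiotrophin-like cytokine factor 1, the protein of Clcf1, acts on cells that carry the ciliary neurotrophic factor receptor. Bound receptors activate Janus kinases and STAT3, and SOCS3 limits the signal. In lung fibroblasts IL-6 is a known secreted product of senescent cells and IL-11 is known for its part in matrix production.

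The libraries held 93736593 to 109706025 counts, of which 18219831 to 21386546 lay outside 3 ribosomal RNA-rich rows. Levels are counts scaled to a common library total (CPM), which includes those rows. Log2 fold changes are senescent minus quiescent with their standard error (SE), and mean levels carry the SD over 3 libraries. Senescent replicate 3 stood apart from the other senescent libraries, with a root mean square log2 difference of 0.318 and 0.364 to them over all tested genes, against 0.262 between senescent replicates 1 and 2 and 0.221 to 0.238 among the quiescent libraries. Fibroblast markers were abundant in every library, with a summed level of 3861 to 3949 CPM in quiescent and 2193 to 2666 CPM in senescent libraries (3 of 9 genes higher, 5 lower). Summed macrophage markers were 3.98 to 4.25 CPM in quiescent and 10.9 to 14.4 CPM in senescent libraries. All 5 of the 10 that passed the filter were higher, with a median log2 fold change of 1.58. Among those that did not pass, the highest total over all libraries was 83 counts. The leukocyte gene Ptprc held at most 9 counts in any library and the alveolar macrophage gene Siglecf at most 1, both chosen here after their values were seen. Summed smooth muscle and pericyte markers were 28.0 to 30.8 CPM in quiescent and 67.8 to 109 CPM in senescent libraries (5 of 7 higher, 1 lower). For endothelial markers the ranges were 6.79 to 7.67 and 10.95 to 13.2 CPM (2 of 5 higher, 1 lower), and for mesothelial markers 6.05 to 6.89 and 8.81 to 10.9 CPM (1 of 5 higher, 2 lower). Summed epithelial markers were 0.395 to 0.472 CPM in quiescent and 0.581 to 0.807 CPM in senescent libraries (the 1 tested gene higher). Lymphocyte markers stayed at or below 0.169 CPM in sum, with Cd3e listed at 0 throughout. Mast cell and granulocyte markers were 1.87 to 2.14 CPM in quiescent and 0.791 to 1.22 CPM in senescent libraries (1 of 3 tested higher, 2 lower), with Fcer1a and S100a9 listed at 0. The part of such cells in the levels below was not tested, and in bulk RNA a change in the share of a cell type and a change per cell cannot be told apart.

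All 4 ligand genes were higher in the senescent libraries, and all 5 receptor subunit genes were lower. Il11 had the largest fold change among the ligands, followed by Lif, Clcf1 and Il6, and Lifr had the largest among the receptor subunits. For each of the 9 genes the 3 senescent and the 3 quiescent values did not overlap. All 9 were called in edgeR at an adjusted p under 0.05, as were 74.5% of all tested genes, 36.7% higher and 37.8% lower. Groups without overlap were found for 78.3% of all tested genes, 38.4% with the senescent values above and 39.9% with them below. All 4 ligands were at least 4-fold higher (4.31% of tested genes were), and 4 of the 5 receptor subunits, all but Il6ra, at least 2-fold lower (14.3% were). Since this contrast was known when the genes were chosen, nothing is read from these counts. Under library totals without further scaling, the calls over all genes moved from 5158 higher and 5316 lower to 2952 and 7435, and the median log2 fold change from -0.02 to -0.32; the 9 genes kept their directions.

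**Figure D1:**
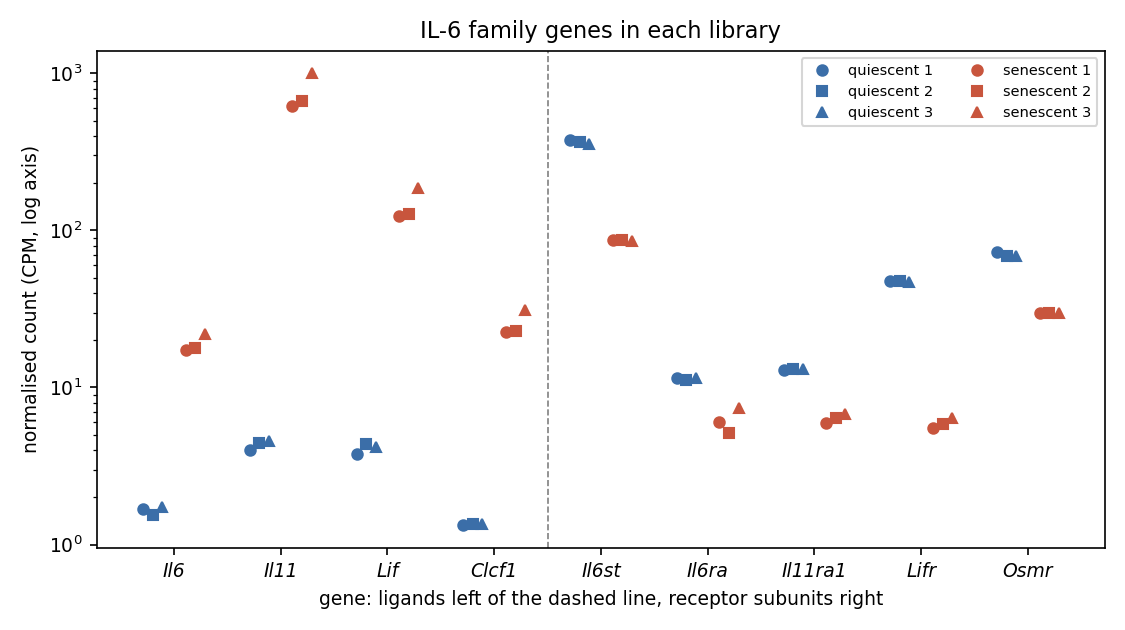
Normalised count (CPM, log axis) of the 4 ligand genes and the 5 receptor subunit genes in each of the 6 libraries, 1 symbol per library. Senescent values (red) lie above quiescent values (blue) for each ligand, up to 999.7 CPM for Il11, and below them for each receptor subunit.

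Il11 (chromosome 7, 4772373 to 4782859, GRCm38, the assembly that the name mm10 stands for) encodes interleukin 11. It had 422, 528 and 480 counts in quiescent replicates 1, 2 and 3 and 61906, 59532 and 102867 counts in the senescent ones. In CPM these were 3.97, 4.45 and 4.53 against 620.2, 665 and 999.7. The lowest senescent value was thus far above the highest quiescent one, and senescent replicate 3 was highest. The means were 4.32 ± 0.303 and 762 ± 207 CPM (n = 3 each), with a log2 fold change of 7.46 and a standard error of 0.24, the 12th highest among tested genes. Il11 made up 0.00225% to 0.00259% of the counts outside the ribosomal rows in quiescent libraries and 0.303% to 0.481% in senescent ones.

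Lif (chromosome 11, 4257557 to 4272514) encodes leukemia inhibitory factor. Its levels were 3.76, 4.35 and 4.15 CPM in the quiescent libraries and 124, 127 and 186 CPM in the senescent libraries. The mean went from 4.09 ± 0.299 to 146 ± 35.1 CPM (n = 3 each), with a log2 fold change of 5.16 (SE 0.20). No senescent value came near the quiescent ones, and senescent replicate 3 was again the highest.

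Clcf1 (chromosome 19, 4214238 to 4223490) encodes cardiotrophin-like cytokine factor 1 and had 1.33, 1.36 and 1.35 CPM in quiescent libraries. It reached 22.6, 23.0 and 31.0 CPM in the senescent libraries, with a log2 fold change of 4.25 (SE 0.15). Il6 (chromosome 5, 30013114 to 30019981), the gene of the founding cytokine, had 1.67, 1.53 and 1.73 CPM in quiescent libraries. In the senescent libraries it had 17.3, 17.9 and 21.7 CPM, with a log2 fold change of 3.53 (SE 0.10). Neither gene's groups overlapped. Among all tested genes Lif ranked 78th from the top, Clcf1 142nd and Il6 222nd. In the annotation used here, Clcf1 overlaps the exons of another gene on its strand, AC109138.7, that has no row of its own, so its count is uncertain.

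The stretch before the start site is shown for the 3 ligands found in the RefSeq promoter table and for Il6st. They were chosen after the search, in which these 3 ligands held a motif that the receptor subunits did not, Il11 before its internal start only. RefSeq sequences (GRCm38.p6) were found for 8 of the 9 genes; Clcf1 was not matched. Each stretch is the 250 bases before a start site, written 5′ to 3′ on the gene's strand, and capitals mark every match to the motifs listed after the sequences. For Il11, which has a pair of start sites in the table, the stretch before the internal one is shown. The positions are chr5:30012864-30013113 on the plus strand for Il6, chr7:4778142-4778391 on the minus strand for Il11, chr11:4257318-4257567 on the plus strand for Lif and chr13:112463820-112464069 on the plus strand for Il6st.
Il6: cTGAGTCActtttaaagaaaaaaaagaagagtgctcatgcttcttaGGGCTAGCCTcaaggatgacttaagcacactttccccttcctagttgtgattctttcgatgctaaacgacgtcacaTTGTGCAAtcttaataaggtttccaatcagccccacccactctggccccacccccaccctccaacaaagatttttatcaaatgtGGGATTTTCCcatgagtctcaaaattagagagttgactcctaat
Il11: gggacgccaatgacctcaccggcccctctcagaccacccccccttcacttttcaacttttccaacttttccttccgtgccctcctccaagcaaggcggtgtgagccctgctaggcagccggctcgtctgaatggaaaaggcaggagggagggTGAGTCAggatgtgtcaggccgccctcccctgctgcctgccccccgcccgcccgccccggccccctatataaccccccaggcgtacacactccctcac
Lif: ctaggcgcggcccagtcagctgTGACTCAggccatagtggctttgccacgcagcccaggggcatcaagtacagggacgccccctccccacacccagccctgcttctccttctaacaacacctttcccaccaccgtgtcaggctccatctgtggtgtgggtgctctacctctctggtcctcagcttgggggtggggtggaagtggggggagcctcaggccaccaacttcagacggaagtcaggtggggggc
Il6st: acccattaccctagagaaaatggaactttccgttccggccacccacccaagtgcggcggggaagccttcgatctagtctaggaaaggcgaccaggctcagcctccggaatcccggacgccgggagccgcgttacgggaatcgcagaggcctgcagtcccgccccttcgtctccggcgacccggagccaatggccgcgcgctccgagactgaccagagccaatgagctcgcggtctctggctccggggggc

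The motifs searched were AP-1 (TGANTCA), CRE (TGACGTCA), NF-kB, C/EBP (TTNNGNAA), STAT (TTCNNNGAA), the TATA-box core (letters TATAAA) and the p53 half-site, all on both strands. The AP-1 motif was present in each of the 3 ligand genes, in 3 of their 4 stretches, and in none of the 7 stretches of the 5 receptor subunit genes. It lay from -249 to -243 before the start of Il6, from -228 to -222 before Lif and from -98 to -92 before the internal start of Il11, and not before the upstream start of Il11. Of all 32851 stretches of the same length in the table, 6.75% held it. Il6 also held an NF-kB match from -44 to -35 (4.65% of all stretches), a C/EBP match from -128 to -121 (36.8%) and a p53 half-site match from -204 to -195 (7.13%). Il6ra held C/EBP matches from -116 to -109, on both strands, and from -70 to -63. Matches to different motifs did not overlap in these genes, and CRE (1.55% of all stretches), STAT (7.02%) and the TATA-box core (12.4%) had no match in any of the 8 genes. Only the exact letters were counted for the TATA-box core, so the near-match tatataa in the Il11 stretch shown was not. All matches given here describe letters in a window and were searched with the fold changes of the genes known.

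All 4 ligand transcripts carried AU-rich elements in the 3′ untranslated region, short stretches through which proteins such as tristetraprolin (the product of Zfp36) shorten the life of cytokine mRNAs. The pentamer ATTTA occurred 6 times in the 427 bases of Il6, 10 times in the 1194 bases of Il11, 4 times in the 922 bases of Clcf1 and 7 times in the 3180 bases of Lif. Per kb these were 14.1, 8.38, 4.34 and 2.20, against a median of 1.27 over 12686 tested genes with an untranslated region of at least 50 bases. The share of those genes with a lower density was 99.7% for Il6, 98.4% for Il11, 90.5% for Clcf1 and 68.2% for Lif. Of the receptor subunits, all but Il11ra1 carried the pentamer too: 9 times in Il6st, 1 time in Il6ra, 11 times in Lifr and 4 times in Osmr. Among the receptor subunits the density was 1.60 for Il6st, 0.544 for Il6ra, 0 for Il11ra1, 1.74 for Lifr and 2.23 for Osmr, so Lif and Osmr were alike. The longer element TTATTTATT was found in 7.45% of the tested genes; Il11 held it 5 times, Lif and Clcf1 2 times each, and Il6 and the 5 receptor subunits not at all. Overlapping copies were counted, so in Il11 those starting at bases 47, 51 and 55 form 1 run, and the others start at 188 and 311. A site of each of these 3 genes is shown from the GENCODE M21 transcripts, with 1 copy of the element in capitals. In the Il11 stretch shown this is the copy at base 47, and the copies at 51 and 55 are left in small letters.
Il11: aaccagatcTTATTTATTtatttattt
Lif: aaggggcctTTATTTATTatttaaaac
Clcf1: tattaatatTTATTTATTtggagatgt

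**Figure D2:**
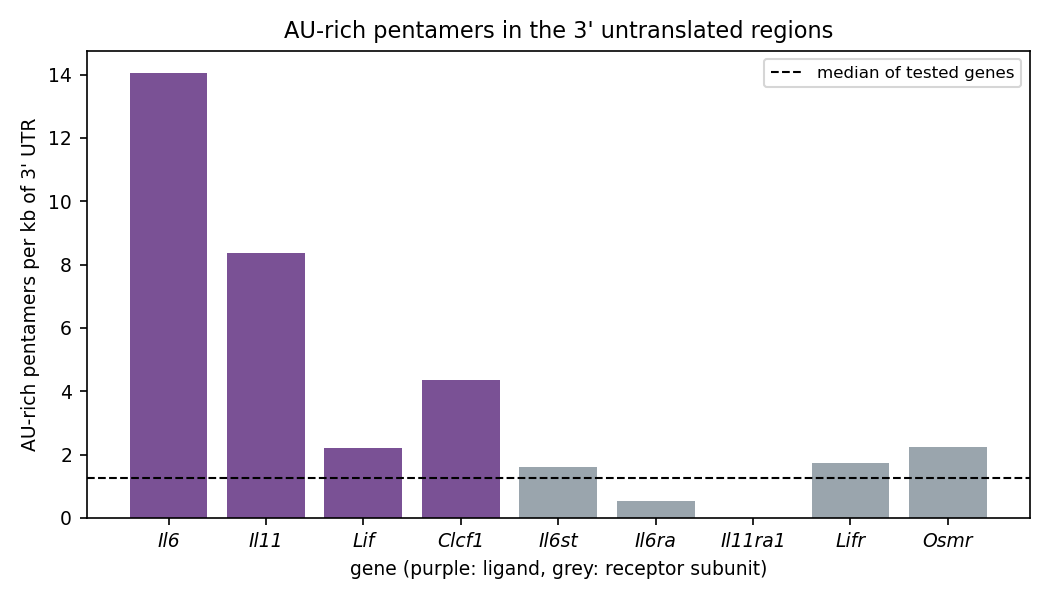
AU-rich pentamers per kb of 3′ untranslated region in the main transcript of each member, with the median of tested genes as a dashed line. The bars of Il6 (14.1) and Il11 (8.38) are the tallest, and those of Lif (2.20) and Osmr (2.23) are alike in height.

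Il6st (chromosome 13, 112464070 to 112510086), the gp130 gene, had 378, 364 and 354 CPM in the quiescent libraries. In the senescent libraries it was at 87.1, 86.4 and 85.8 CPM, so the senescent values lay close together and far below the quiescent ones. The mean went from 365 ± 12.3 to 86.4 ± 0.618 CPM (n = 3 each), with a log2 fold change of -2.08 (SE 0.05). Lifr (chromosome 15, 7090614 to 7197489), the LIF receptor gene, had 47.9, 47.3 and 47.1 CPM in quiescent and 5.50, 5.89 and 6.43 CPM in senescent libraries. Its log2 fold change of -2.997 (SE 0.06) was the lowest of the 9 genes and the 176th lowest of all tested genes. Osmr (chromosome 15, 6813577 to 6874969), the oncostatin M receptor gene, lies 216 kb from Lifr. It went from 72.9, 68.7 and 68.4 CPM to 29.96, 29.9 and 29.6 CPM, with a log2 fold change of -1.23 (SE 0.05).

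The ligand-specific receptors Il11ra1 and Il6ra had the smallest fold changes of the 9 genes, and their groups did not overlap either. Il11ra1 (chromosome 4, 41699989 to 41769474), which encodes the IL-11 receptor alpha chain, had 13.0, 13.1 and 13.1 CPM in quiescent and 5.94, 6.38 and 6.78 CPM in senescent libraries. Its log2 fold change was -1.04 with a standard error of 0.06. A near-identical copy, Il11ra2, is listed at 0 in all 6 libraries, and Il11ra1 spans several other genes in the annotation (among them Galt on the same strand), so its count is uncertain. Il6ra (chromosome 3, 89864059 to 89913196), the IL-6 receptor alpha chain gene, went from 11.4, 11.1 and 11.5 CPM to 6.05, 5.12 and 7.39 CPM. Its log2 fold change of -0.87 (SE 0.11) was the smallest in size of the 9, with the widest relative spread among senescent libraries of any receptor subunit. It ranged from -1.01 to -0.76 when each library was left out in turn.

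Dividing by the length of each gene's main transcript allowed the members to be compared with each other. In the quiescent libraries the order was Il6st (42.1 ± 1.41 CPM per kb), Osmr (12.8 ± 0.454), Il11ra1 (6.50 ± 0.0488), Lifr (4.92 ± 0.0435), Il6ra (3.40 ± 0.0553), Il11 (2.22 ± 0.156), Il6 (1.44 ± 0.0869), Lif (1.02 ± 0.0743) and Clcf1 (0.728 ± 0.00877) (n = 3). Every receptor subunit stood above every ligand, and no neighbours in this order overlapped in their 3 values. In the senescent libraries Il11 came first (391 ± 106 CPM per kb), then Lif (36.3 ± 8.73), Il6 (16.6 ± 2.12), Clcf1 (13.8 ± 2.57), Il6st (9.96 ± 0.0712), Osmr (5.43 ± 0.0377), Il11ra1 (3.17 ± 0.210), Il6ra (1.85 ± 0.341) and Lifr (0.615 ± 0.0486). All 4 ligands then stood above all 5 receptor subunits, and Il6 and Clcf1 were the sole neighbours whose values overlapped. With the combined length of all annotated exons in place of the main transcript, a choice added after the data were seen, Il6st (7.79) lay above Clcf1 (6.71) and close to Il6 (7.82) in senescent libraries, and in quiescent libraries Lifr (4.40) lay above Il11ra1 (2.92), Il11 (2.07) above Il6ra (1.31), and Lif (0.940) above Il6 (0.678).

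**Figure D3:**
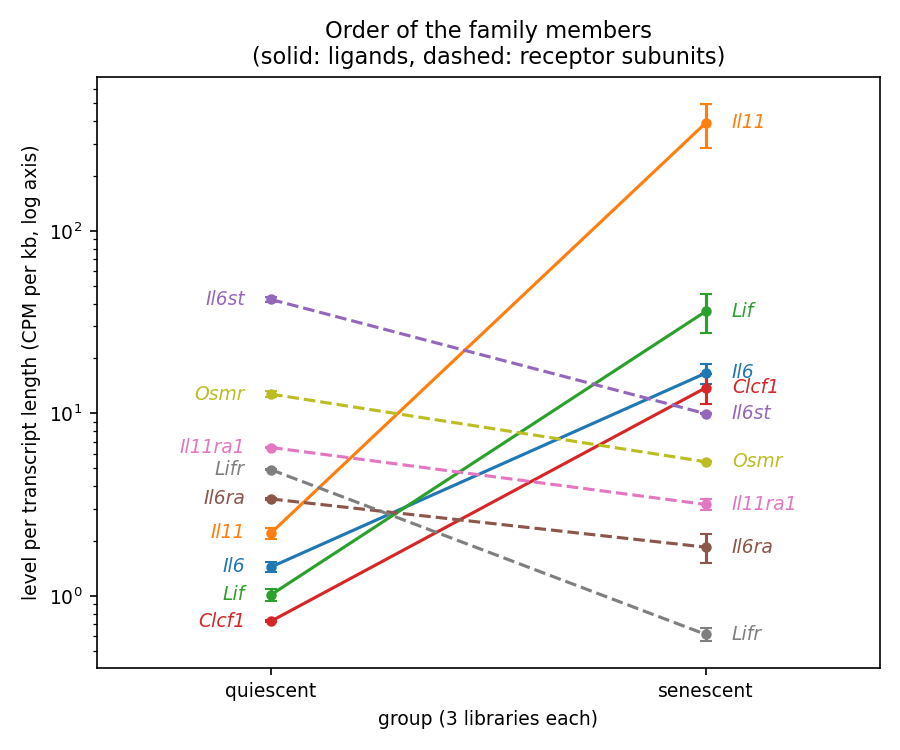
Mean level per transcript length (CPM per kb, log axis) of the 9 members in the 2 groups, with SD bars over 3 libraries; solid lines are ligands and dashed lines receptor subunits. In quiescent libraries all receptor subunits lie above all ligands, and in senescent libraries all ligands lie above all receptor subunits.

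The balance of the family as a whole followed from these values. The 4 ligands summed to 5.40 ± 0.224 CPM per kb in quiescent and 458 ± 120 CPM per kb in senescent libraries, and the 5 receptor subunits to 69.7 ± 1.84 and 21.0 ± 0.441. The ligand sum divided by the receptor sum was 0.0720, 0.0786 and 0.0823 in quiescent libraries and 18.1, 19.4 and 27.6 in senescent libraries. Il11 accounted for 41.0% ± 1.31 of the ligand sum in quiescent and 85.3% ± 0.845 in senescent libraries (n = 3), while the share of Il6 was 26.7% ± 1.90 and 3.71% ± 0.446. The senescent libraries thus differed in composition as well as in sum, with Il11 leading in both groups. These sums and shares rest on main transcript lengths, and the SD does not cover that choice. With the combined exon length, the quiescent mean of Il6 was 0.678 CPM per kb in place of 1.44.

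Within the receptor subunits, the level of Il6st was lower relative to every partner other than Lifr in senescent than in quiescent libraries. Il6st per kb was 12.4 ± 0.471 times Il6ra in quiescent and 5.51 ± 1.01 times in senescent libraries, 6.47 ± 0.261 and 3.15 ± 0.232 times Il11ra1, and 3.30 ± 0.0448 and 1.83 ± 0.00682 times Osmr (n = 3). Against Lifr it went the other way, from 8.56 ± 0.214 to 16.3 ± 1.39 times. Osmr was 2.59 ± 0.0694 times Lifr in quiescent and 8.87 ± 0.748 times in senescent libraries. Neither group of ratios overlapped with the other for any of these pairs. The size of each ratio depends on the transcript lengths used, which the SD does not cover. With the combined length of all annotated exons, quiescent means were 32.9 CPM per kb for Il6st, 1.31 for Il6ra, 2.92 for Il11ra1, 5.78 for Osmr and 4.40 for Lifr. A gene's length is the same in both groups, so the direction between the groups does not depend on it.

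The ligands also differed among the senescent libraries, with replicate 3 the highest for each of the 4. Senescent replicate 3 exceeded the mean of senescent replicates 1 and 2 by 0.64 on the log2 scale for Il11, 0.57 for Lif, 0.44 for Clcf1 and 0.31 for Il6. For Il6ra the same difference was 0.41, for Lifr 0.18 and for Il11ra1 0.14, whereas Il6st (-0.01) and Osmr (-0.02) were level. Of all tested genes, 96.7% had a lower value of this difference than Il11, 95.9% than Lif, 93.1% than Clcf1, 92.1% than Il6ra and 87.9% than Il6. This is a comparison of single libraries with no test. Without senescent replicate 3 the log2 fold changes were 7.22 for Il11, 4.94 for Lif, 4.09 for Clcf1 and 3.42 for Il6, each the lowest value obtained by leaving out a library.

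**Figure D4:**
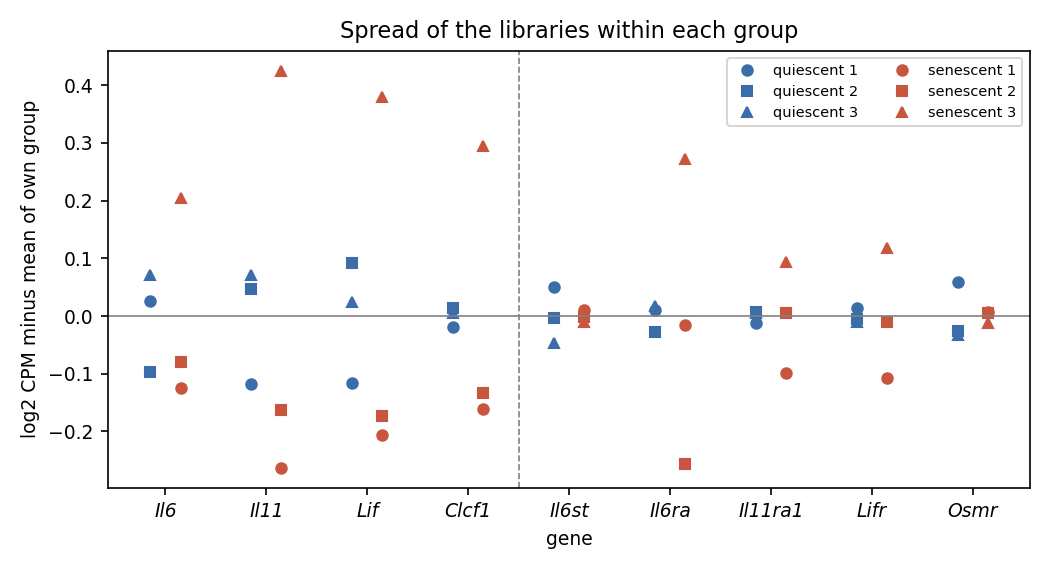
Log2 CPM of each member in each library minus the mean of the library's own group. Senescent replicate 3 (red triangles) is the highest senescent library for the 4 ligands, Il6ra, Il11ra1 and Lifr, and the 6 libraries lie near 0 for Il6st and Osmr.

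The other ligand genes of the family had few or no counts. Of 7 such genes 2 passed the filter: Ctf1, which encodes cardiotrophin 1, fell from 0.629 ± 0.0555 to 0.273 ± 0.0246 CPM (log2 fold change -1.20, SE 0.17, edgeR adjusted p = 6.6e-05), and Cntf had 0.133 ± 0.00763 and 0.123 ± 0.0238 CPM (n = 3, edgeR adjusted p = 0.76). Osm, the gene of the ligand that uses Osmr, had 0 counts in each quiescent library and 1, 2 and 2 in the senescent libraries. It did not pass the filter on low counts. Il27 had at most 5 counts in any library, Ctf2 at most 3, and Ebi3 and Il31 at most 1.

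Cntfr, the gene of the ciliary neurotrophic factor receptor, fell from 0.516 ± 0.0504 to 0.315 ± 0.0677 CPM (log2 fold change -0.72, SE 0.20, edgeR adjusted p = 0.0061). Cntfr lies 2900 bases from Il11ra1. Il27ra had 0.217 ± 0.0523 and 0.305 ± 0.0300 CPM (n = 3, edgeR adjusted p = 0.083), and Il31ra at most 6 counts.

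**Figure D5:**
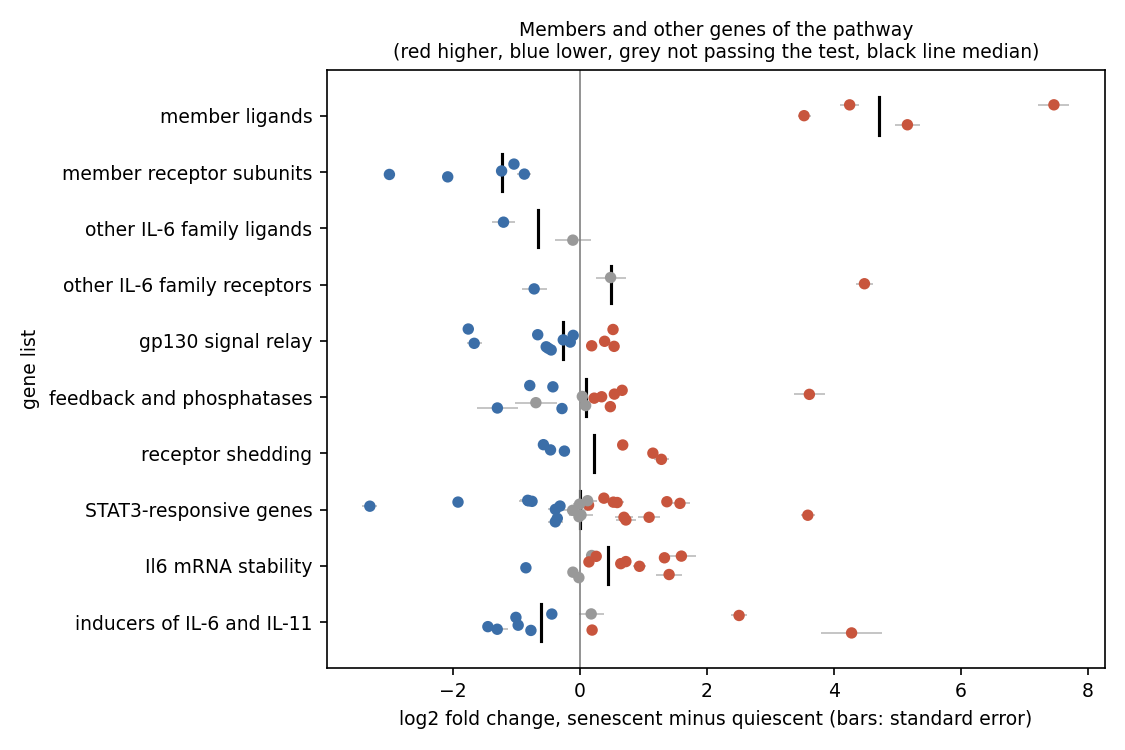
Log2 fold change (senescent minus quiescent, bars are standard errors) of the members and of the tested genes of 8 lists of the same pathway, with the median of each list as a black line. The members' ligands and receptor subunits lie on opposite sides of 0, while most lists hold genes on both sides.

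Of 13 genes that relay the gp130 signal, 4 were higher and 9 lower, with a median log2 fold change of -0.26 against -0.02 over all tested genes. Over all tested genes 36.7% were higher and 37.8% lower, and these values apply to the lists below too. The number of lower relay genes was 7 in DESeq2, and 7 to 9 when each library was left out in turn. Stat3, the main transcription factor of the pathway, fell from 76.7 ± 0.617 to 54.4 ± 1.03 CPM (n = 3, log2 fold change -0.50, SE 0.04, edgeR adjusted p = 9.9e-07). Gab1, a docking adaptor gene, fell by 1.76 on the log2 scale, whereas Ptpn11, which encodes the phosphatase SHP2, rose by 0.54 and the adaptor gene Gab2 by 0.52. Among the Janus kinase genes, Jak1 had a log2 fold change of 0.19 (edgeR adjusted p = 0.0046) and Jak2 of -0.15 (edgeR adjusted p = 0.028). Tyk2, chosen here after its values were seen, fell by 0.45 on the log2 scale (SE 0.07, edgeR adjusted p = 7.8e-05). Jak1 was at -0.11 under library totals (edgeR adjusted p = 0.18), and Jak2 did not pass in DESeq2 (adjusted p = 0.11).

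Of 13 feedback genes and phosphatases, 6 were higher and 4 lower, with a median of 0.09. Socs3, which STAT3 induces and which binds gp130, fell from 16.5 ± 0.941 to 9.54 ± 0.913 CPM (n = 3, log2 fold change -0.79, SE 0.07, edgeR adjusted p = 1.5e-06). Its values were lower in all 3 senescent libraries than in any quiescent one. Socs1 had 0.550 ± 0.0118 and 0.333 ± 0.200 CPM (n = 3, edgeR adjusted p = 0.086). Socs7 rose by 0.67 and Socs6 by 0.54 on the log2 scale, and Pias1, an inhibitor of STAT proteins, fell by 0.42. Cish, a STAT5-induced SOCS family gene chosen here after its values were seen, rose from 0.190 ± 0.0117 to 2.33 ± 0.655 CPM (log2 fold change 3.61, SE 0.25, edgeR adjusted p = 3.6e-07). Under library totals 7 of the 13 genes were lower.

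Of 24 tested genes known to respond to STAT3, 10 were higher and 9 lower, with a median log2 fold change of 0.01 against -0.02 over all tested genes. Timp1, an inhibitor of matrix metalloproteinases, rose from 23.3 ± 2.52 to 281 ± 33.7 CPM (n = 3, log2 fold change 3.59, SE 0.11, edgeR adjusted p = 3.6e-09). Junb, which encodes an AP-1 subunit, rose by 1.58 on the log2 scale and Cebpb, whose factor binds the C/EBP motif, by 0.73. Their relatives in this list, Fos and Cebpd, chosen here after their values were seen, went the other way. Fos fell by 0.35 on the log2 scale (edgeR adjusted p = 0.0040) and Cebpd by 0.81 (edgeR adjusted p = 0.0012). Steap4, a metalloreductase gene, fell by 3.31 and Birc5, which is also a gene of dividing cells, by 1.92.

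Shedding of the IL-6 receptor depends on ADAM proteases, their iRhom partners and the inhibitor TIMP3. Of these 6 genes, 3 were higher and 3 lower. The protease genes Adam10 and Adam17 fell by 0.46 and 0.57 on the log2 scale, and the iRhom gene Rhbdf1 fell by 0.24. Rhbdf2 and Frmd8, which help Adam17 reach or stay at the cell surface, rose by 1.28 and 0.68. Timp3, an inhibitor of Adam17, rose from 304 ± 25.1 to 675 ± 48.6 CPM (n = 3, log2 fold change 1.15, SE 0.07, edgeR adjusted p = 7.2e-08).

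Of 12 genes that act on the stability of Il6 and similar mRNAs, 8 were higher and 1 lower, against 36.7% and 37.8% of all tested genes. The median was 0.45, against -0.02 over all tested genes. Zfp36, whose protein binds AU-rich elements and promotes decay, went from 4.94 ± 0.0893 to 14.9 ± 4.86 CPM (n = 3, log2 fold change 1.60, SE 0.22, edgeR adjusted p = 5.2e-04). Zc3h12a, the gene of the nuclease regnase-1, rose by 1.41 on the log2 scale. Zfp36l1, a relative of Zfp36, fell by 0.85, and Arid5a, whose protein stabilises Il6 mRNA, did not pass (log2 fold change 0.19, edgeR adjusted p = 0.053). Elavl1, chosen here after its values were seen, rose from 13.0 ± 0.330 to 32.8 ± 4.42 CPM (n = 3, log2 fold change 1.33, SE 0.09, edgeR adjusted p = 2.9e-07). The list was not split into genes that promote decay and genes that stabilise mRNA. The number of lower genes was 2 without senescent replicate 3 or under upper quartile scaling and 3 under library totals.

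Of 12 cytokine and receptor genes known to induce IL-6 or IL-11, 10 passed the filter, and 3 were higher and 6 lower, with a median of -0.61. Tgfb1, an inducer of IL-11 in fibroblasts, rose from 6.01 ± 0.746 to 34.1 ± 5.41 CPM (n = 3, log2 fold change 2.51, SE 0.13, edgeR adjusted p = 5.3e-07), while Tgfb2 fell by 1.30 on the log2 scale. Il1a rose from 2, 4 and 1 counts in quiescent to 39, 25 and 63 counts in senescent libraries (log2 fold change 4.28, SE 0.48, edgeR adjusted p = 8.3e-06). Il1b had 1 count in all, and the receptor gene Il1r1 fell by 0.44. Pdgfra, a growth factor receptor and fibroblast marker, fell by 1.45, and Egfr had a log2 fold change of 0.19 that became -0.10 under library totals (edgeR adjusted p = 0.30).

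The genes whose profiles over the 6 libraries lay nearest to each of 4 members were found by Euclidean distance of log2 CPM after subtracting each gene's mean, among 6927 genes. Nearest to Il6 were Timp1 (distance 0.20), Fxyd5 (0.22) and Ier3 (0.23). Nearest to Il11 were Mmp13 (0.78), Il1rl1 (1.19) and Ptgs2 (1.41), larger distances than for the other 3 genes. Nearest to Lif were Plau (0.34), Mmp10 (0.41) and Akr1c18 (0.53), and nearest to Il6st were Idi1 (0.07), Bmp4 (0.12) and Fdft1 (0.14). These distances describe profiles that the contrast between the groups dominates.

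Genes beside the members moved in both directions. Of 49 tested genes within 100 kb of a member, 18 were higher and 16 lower (36.7% and 32.7%, against 36.7% and 37.8% over all tested genes). Around Il11, 7 of 12 were higher and 1 lower. The genes next to it, chosen here after their values were seen, were low in both groups: Tmem190, 78 bases upstream on the opposite strand, went from 0.115 to 1.46 CPM on average, and Fam71e2, 1071 bases downstream on the same strand, from 0.00628 to 0.423 CPM. Around Clcf1, 2 of 13 were higher and 6 lower, with log2 fold changes from -0.86 to 0.66. Likewise chosen after its value was seen, the one tested gene near Lifr, Egflam, had a log2 fold change of -3.46, and the one near Il6st, Ankrd55, of -3.16. The sources used here do not say whether the counting used strand, so reads of a gene and of an overlapping partner cannot be told apart.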

How the data were processed

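Ribosomal RNA-depleted total RNA was sequenced as paired reads of 100 bases with a directional kit, per the labels' protocols. The authors' deposited gene table holds raw counts by symbol, whole numbers with unequal library totals. CPM were computed here on TMM-scaled totals. Listed without a role, per the submitters' processing notes, are mm10, edgeR 3.32.1 and limma 3.46.0; no source used here names the aligner, counter or strand setting. A repeat count table was not used here.

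All genes were fitted together in edgeR 4.0.16 (R 4.3.3) after filterByExpr (minimum count 10), using TMM scaling with all rows kept in the totals, a robust quasi-likelihood fit and Benjamini-Hochberg adjustment with a threshold of 0.05. Each SE was taken as the size of the log2 change over the root of its F statistic. Log2 CPM used a prior count of 2. Reads carry no molecular identifiers. No replicate pair agreed within sampling noise (chi-square per degree of freedom at least 2.26). Positions, lengths and untranslated regions came from GENCODE M21 (GRCm38); the main transcript has the longest coding sequence, then the greatest length. Where it is not stated otherwise, an adjusted p is from edgeR.

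Members and lists were chosen with earlier results of these data known. Named genes were the members, every gene of lists with 7 or fewer genes, fixed genes of longer lists, and up to 2 per direction of the largest changes with mean log2 CPM of 0 or more; the 3 nearest profiles had a mean log2 CPM of at least 2. Some genes under this rule are not reported here. Alternatives were DESeq2 1.42.0, limma-voom (limma 3.58.1), other scalings and filters, a block on the replicate number, and omission of single libraries.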

Additional observations from a re-analysis of the deposited data

How the results depend on the processing

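Every member kept its direction under the 9 alternatives on all libraries and the 6 that left a library out, and leaving out a library moved no member by more than its spread between replicates. With plain library totals in place of TMM, 2952 genes were higher and 7435 lower, in place of 5158 and 5316, and the median over tested genes was -0.32, in place of -0.02. There the log2 fold change was 3.23 for Il6, 3.95 for Clcf1, -2.38 for Il6st, -1.17 for Il6ra, -1.33 for Il11ra1, -3.30 for Lifr and -1.53 for Osmr. Among the lists, 2 relay genes were higher, 7 feedback genes lower and 3 mRNA stability genes lower. Upper quartile scaling moved the median to -0.12, Il6st to -2.17, Osmr to -1.33 and the lower mRNA stability genes to 2. Without a filter on low counts, 1 of the other ligand genes was higher and 2 were lower. Leaving out each library in turn gave 4860 to 5331 higher and 4901 to 5416 lower genes, and 7 to 9 lower relay genes. The lower mRNA stability genes then numbered 1 to 2, with 2 without senescent replicate 3.

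Same-numbered samples did not deviate together (correlations of 0.05, -0.01 and 0.06), so the numbers were not taken as pairs. With the replicate number as a block, 5124 genes were higher and 5281 lower, and no member's log2 fold change moved by more than its spread between replicates. Precision is limited by 3 libraries per group, and for Osm, Il27, Ctf2, Ebi3, Il31 and Il31ra by counts of 6 or fewer per library.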
